A study of Mus musculus with 4 samples.

Results

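Salivary gland stem/progenitor cells are usually recognised and sorted by proteins on their surface. This account describes the open chromatin around 10 genes of that kind in mouse salivary gland organoids (mSGOs): Cd44, Cd24a, Cd164, Itgb1, Kit, Prom1, Epcam, Ly6a, Aldh3a1 and Ascl3. They were taken as a fixed list by gene name, and all 10 were found among the 21440 protein-coding genes of the GRCm38.p6 RefSeq gene table that could be given a strand. The name of the group fits 8 of them as surface proteins and Aldh3a1 as an enzyme, whereas Ascl3 encodes a transcription factor. Bulk ATAC-seq, which marks the stretches of DNA that the Tn5 transposase can reach, was performed on 7-day organoids of C57BL/6 submandibular glands that had not been irradiated, cultured in Matrigel with Wnt3a- and R-spondin1-conditioned medium. The labels give 4 samples, 2 at passage 1 and 2 at passage 2, and within each passage 1 from a mouse of 12 weeks and 1 from a mouse of 3 months. A single list of 32011 distinct regions was deposited, with no value per sample. It was taken to be the consensus of all 4 samples, although its size does not match the number of peaks that the methods give for that consensus. Thus passages and mice could not be compared, and neither sequencing depth nor variation between replicates is known. The labels of 12 weeks and 3 months name about the same age in different units.

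A region is called from many organoid cells at once, and an enhancer used by only a few of these cells adds little signal to such a pool. According to the paper, basal duct cells and stem/progenitor cells together made up most of the organoids at this stage of culture. That composition came from single-cell RNA data of organoids after 1 passage, whereas the samples here also include passage 2. A gene without a region in the list may be closed in all cells or open in too few of them, and these cannot be told apart here. Open chromatin is found at the start sites of active and poised genes and at enhancers, which can lie many kb from the gene they act on. CD44 is a receptor for hyaluronan, and Itgb1 encodes CD29, the beta subunit that many integrins share to bind laminin, collagen and fibronectin. EpCAM is a cell adhesion protein of epithelia, and CD24 and CD164 are heavily glycosylated surface proteins. KIT is the receptor tyrosine kinase for stem cell factor, prominin-1 (CD133) is a membrane protein of cell protrusions, and Ly6a encodes Sca-1, a lipid-anchored surface protein widely used to sort mouse stem cells. ALDH3A1 oxidises aldehydes, and ASCL3 marks a set of salivary duct progenitors.

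Around these genes, the list held 38 regions. They were counted in 3 ways, by the position of their midpoint: at the 5′ end (within 1 kb of the outermost 5′ end of the gene), within the gene, and distal (over 1 kb from every protein-coding 5′ end, with the gene's own 5′ end the nearest of them). A region was listed at the 5′ end of 6 of the 10 genes, Cd44, Cd24a, Cd164, Itgb1, Epcam and Aldh3a1, and at none of Kit, Prom1, Ly6a and Ascl3. Among all 21440 protein-coding genes, 38.3% had one. Distal regions were nearest to 8 of the 10 genes, against 40.3% of all genes with 1 or more, and numbered 30 in all. Cd44 had 10, Itgb1 had 5, Cd24a, Cd164 and Epcam had 4 each, and Aldh3a1, Ly6a and Ascl3 had 1 each. Kit and Prom1 had 0. Thus 5 of 10 genes had 4 or more, a number reached by 9.24% of all genes and chosen after the values were seen. The median was 2.5 distal regions for the 10 genes and 0 for all genes. A longer stretch of sequence nearest to a gene's 5′ end can hold more such regions. For Cd44, Itgb1, Cd24a, Cd164 and Epcam it measured 113 to 353 kb. Among all genes with stretches at least as long, the median was 2 for Cd44, Cd24a and Itgb1, and 1 for Cd164 and Epcam. Within the genes there were 8 regions, in Cd44 and Itgb1 (3 each), Epcam and Aldh3a1 (1 each), and 39.5% of all genes held 1 or more.

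**Figure D1:**
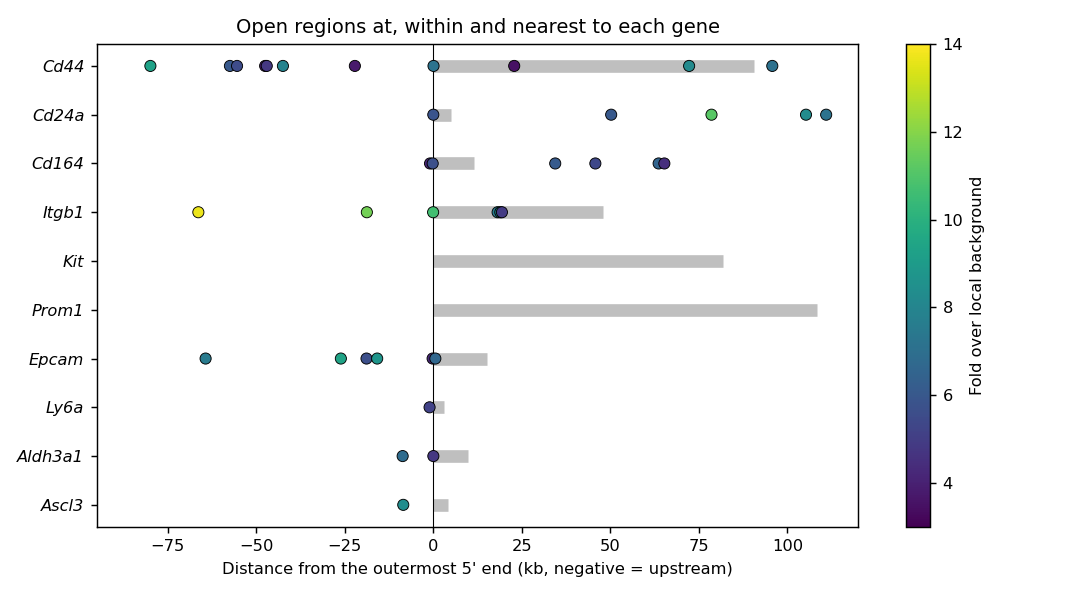
Midpoints of the 38 open regions (points) against their distance in kb from the outermost 5′ end of each gene, with gene bodies as grey bars; the colour gives the fold over the local background. Cd44, Cd24a, Cd164, Itgb1 and Epcam carry most of the regions, and the rows of Kit and Prom1 are empty.

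Sequences at the start sites are shown because the 10 genes divided there. The promoter table of RefSeq (GRCm38.p6) held 7 of the 10 genes; Cd24a, Ly6a and Aldh3a1 were not matched. Each line gives the 250 bases before a start site, 5′ to 3′ on the gene's strand. Capitals mark matches, on either strand, to short motifs of common transcription factor families: GGGCGG (Sp/KLF), CCAAT (NF-Y), TGANTCA (AP-1), CATTCC (TEAD), TGTGGT (RUNX), GCCNNNGGC (AP-2), ACAATG (SOX) and TGTTTAC (FOX). Of those shown, Itgb1, Cd164 and Cd44 had a region over the start, and Kit and Ascl3 did not.
Itgb1, chr8:128685404-128685653 (+): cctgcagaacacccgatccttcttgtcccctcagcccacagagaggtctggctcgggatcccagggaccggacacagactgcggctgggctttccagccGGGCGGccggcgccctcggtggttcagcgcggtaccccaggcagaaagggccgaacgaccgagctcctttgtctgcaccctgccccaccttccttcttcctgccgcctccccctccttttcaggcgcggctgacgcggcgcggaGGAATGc
Cd164, chr10:41519250-41519499 (+): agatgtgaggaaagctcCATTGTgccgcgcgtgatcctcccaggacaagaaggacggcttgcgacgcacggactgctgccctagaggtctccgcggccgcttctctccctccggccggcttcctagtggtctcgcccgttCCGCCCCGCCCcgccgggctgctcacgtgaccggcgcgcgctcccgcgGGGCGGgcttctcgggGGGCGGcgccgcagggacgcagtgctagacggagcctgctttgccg
Cd44, chr2:102901666-102901915 (-): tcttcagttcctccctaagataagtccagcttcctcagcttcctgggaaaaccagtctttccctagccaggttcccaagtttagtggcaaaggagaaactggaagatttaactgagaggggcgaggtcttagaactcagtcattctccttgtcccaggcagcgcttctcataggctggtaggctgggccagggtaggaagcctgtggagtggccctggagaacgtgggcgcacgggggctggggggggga
Kit, chr5:75574737-75574986 (+): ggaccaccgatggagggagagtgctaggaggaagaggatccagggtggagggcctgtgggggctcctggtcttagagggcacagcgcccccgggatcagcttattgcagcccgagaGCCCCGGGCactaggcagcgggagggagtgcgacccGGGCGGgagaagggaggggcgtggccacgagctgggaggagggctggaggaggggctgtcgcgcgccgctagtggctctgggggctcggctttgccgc
Ascl3, chr7:109731733-109731982 (-): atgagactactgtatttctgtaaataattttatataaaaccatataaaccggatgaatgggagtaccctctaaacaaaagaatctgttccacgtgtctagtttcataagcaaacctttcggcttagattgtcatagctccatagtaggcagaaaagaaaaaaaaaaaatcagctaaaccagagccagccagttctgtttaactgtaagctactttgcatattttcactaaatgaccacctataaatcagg

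The start sites differed widely in their CpG dinucleotides. Over windows of 300 bases, from 250 before to 50 after the start, the ratio of observed to expected CpG was 0.98 for Cd164, 0.80 for Itgb1, 0.62 for Kit, 0.45 for Epcam, 0.41 for Prom1, 0.32 for Ascl3 and 0.25 for Cd44. Across 17492 protein-coding genes, the share of such windows with a region within 1 kb rose from 3.98% at ratios up to 0.2 to 71.3% between 0.8 and 1. For Cd164 and Itgb1, 71.2% and 68.1% of windows with a ratio within 0.1 of theirs had a region, as they did. Cd44 lay at the other end. Only 9.41% of windows like its own had a region, and Cd44 was among them. Kit, in contrast, had no region although 55.2% of windows like its own did. For Epcam (with a region) the share was 31.7%, for Prom1 (without) 24.1% and for Ascl3 (without) 14.5%. The Ascl3 window was the poorest in G and C, at 36.0%, against 69.0% for Kit and 70.0% for Cd164.

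**Figure D2:**
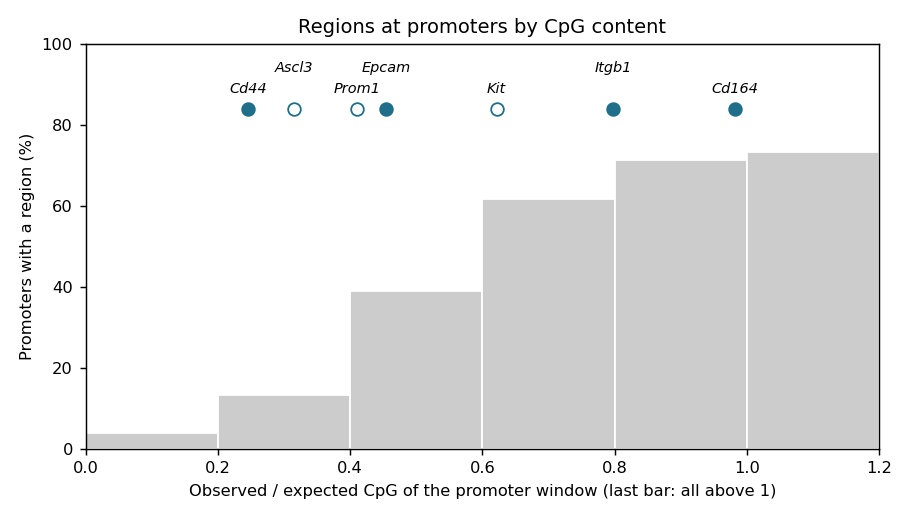
Share of promoter windows of protein-coding genes with a region within 1 kb of the start (bars, percent) by the ratio of observed to expected CpG; circles mark 7 of the genes at their own ratio, filled where a region was listed and open where none was, and their height carries no value. Cd44 is filled at a low ratio (0.25) and Kit is open at a higher one (0.62).

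In the same windows, GGGCGG was found in 6 of 7 genes, all but Ascl3, and in 46.3% of all 17492 windows (69.4% of those with a region and 30.5% of those without). Cd164 held 4 matches, the first bases of which lay 110, 105, 62 and 46 bases before the start, and 2 of these overlapped. The only match of Cd44 began 3 bases after the start and so is not in the line above. Other families gave few matches. CATTCC was found in Itgb1, 7 bases before the start, and in 13.5% of all windows, ACAATG in Cd164 (11.2%), and GCCNNNGGC in Kit (19.6%). TGANTCA (7.03%), CCAAT (39.2%) and TGTGGT (15.1%) were each found in Prom1 alone, and TGTTTAC (2.93%) in none of the 7. A match in these letters describes the sequence and shows no binding.

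At the 5′ ends, regions were present but mostly of low fold. The fold is that of signal over the local background at the strongest summit of a region, as given by the authors' peak caller. The 8 regions at 5′ ends of the 6 genes had folds of 4.19 to 10.7 with a median of 5.78, whereas the 8178 regions within 1 kb of any protein-coding 5′ end had a median of 7.90 (quartiles 6.05 and 10.6). Of the 8, only that of Itgb1 lay above this median. It ran from 128685306 to 128685889 on chromosome 8 and was centred 57 bp before the 5′ end. Its fold of 10.7 was higher than 75.8% of regions at 5′ ends. It was also the only one of the 8 with the highest IDR score of 1000, which 57.2% of all regions at 5′ ends had. The IDR score rates how reproducible a region is. Which replicates were compared for it is not given in the sources used here. The region of Cd44 lay on chromosome 2 from 102901373 to 102901850, centred 58 bp inside the gene, with a fold of 7.18 and 2 summits. That of Cd24a (chromosome 10, 43578840 to 43579493) was centred 3 bp before the start, with a fold of 5.87 and 5 summits. That of Aldh3a1 (chromosome 11, 61208253 to 61208790) was centred 11 bp inside the gene with a fold of 4.80.

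Cd164 and Epcam each had 2 regions at the 5′ end, as did 4.92% of all genes (2 or more). For Cd164, the stronger, from 41519023 to 41519625 on chromosome 10, covered the start and had a fold of 5.70 and 4 summits. The weaker lay upstream of it, from 41518450 to 41518707, with a fold of 4.19. At Epcam the regions stood on either side of the start and did not reach it. The upstream region, on chromosome 17 from 87635643 to 87635914, had a fold of 4.24, and the region inside the gene, from 87636273 to 87636829, had a fold of 6.64. The limit of 1 kb decided few cases: the weaker Cd164 region was centred 922 bp from the start and counted, and the region nearest to Ly6a was centred 1057 bp upstream and did not. With a limit of 500 bp, the stronger Epcam region, centred 572 bp inside the gene, would not count either. Among the 16006 regions with the lowest q-values, a region at the 5′ end was kept by 2 of the 10 genes, Itgb1 and Epcam, and by 25.9% of all genes, and among regions with an IDR score of 1000 by Itgb1 alone and by 24.0% of all genes.

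**Figure D3:**
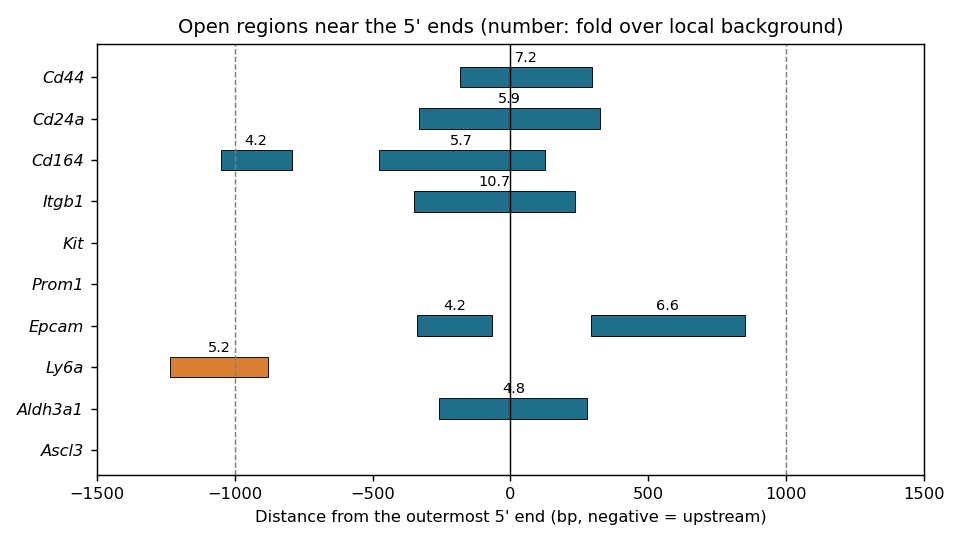
Extent of each region within 1.5 kb of the outermost 5′ ends, in bp from the end (negative is upstream), with the fold over the local background as a number above it; dashed lines mark 1 kb and the orange bar is the Ly6a region outside that limit. The regions of Cd44, Cd24a, Itgb1, Aldh3a1 and the stronger one of Cd164 cover the 5′ end, those of Epcam flank it, and Kit, Prom1 and Ascl3 have none.

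Cd44 had the most distal regions of the 10 genes. That rank depended on how regions were counted: Cd44 kept 3 of its regions, as many as Cd24a, Itgb1 and Epcam, in the set with the lowest q-values, 3 against 4 for Itgb1 at folds at or above the median of all regions, and 0 against 3 for Itgb1 when genes of every type were counted. Its 10 regions were reached or exceeded by 1.42% of protein-coding genes, and they lay in the 208 kb of sequence that were nearer to the 5′ end of Cd44 than to any other protein-coding 5′ end. Among the 3027 genes with at least as much such sequence, the median was 2. Of the 10, 7 lay upstream and 3 downstream, of which 2 were within the gene.
Upstream on chromosome 2, 5 of them fell in a stretch of 15.9 kb from 102943812 to 102959661, all inside the lncRNA gene Gm34483. From the side of Cd44 outwards, these regions ran from 102943812 to 102944481 (fold 7.91), from 102948535 to 102948892 (4.78), from 102949023 to 102949312 (3.80), from 102956922 to 102957288 (5.50) and from 102958570 to 102959661 (6.01), the last the widest at 1092 bp and with 5 summits. The other 2 upstream regions lay on either side of this stretch. The nearer, from 102923670 to 102923984, was 22.2 kb from the start with a fold of 3.76, and the farther, from 102981419 to 102981746, was 79.9 kb away with a fold of 9.32, the highest of the 10. Inside Cd44, a region from 102878614 to 102879026, 22.8 kb from the start, had a fold of 3.47, and a region from 102829339 to 102829494, 72.3 kb from the start, had a fold of 8.21 in only 156 bp. Beyond the 3′ end, a region from 102805759 to 102806082 had a fold of 7.08. Strong and weak regions were thus mixed along the locus.

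Itgb1 had fewer distal regions but stronger ones. Its 5 distal regions, a number reached by 6.39% of genes, lay from 66.4 kb upstream to 19.4 kb downstream of its 5′ end, within the 353 kb of sequence nearest to that end. On chromosome 8, the region from 128619080 to 128619499, 66.4 kb upstream, had a fold of 13.7, the highest of all 38 regions and above that of 96.1% of the 23756 distal regions of the list. The region from 128666527 to 128667240, 18.8 kb upstream, had a fold of 11.7 (above 91.0%) and 4 summits. Both had an IDR score of 1000. Within Itgb1, 3 regions crowded into 1521 bp between 18 and 20 kb after the start: from 128703629 to 128704000 (fold 7.58), from 128704449 to 128704726 (8.47) and from 128704919 to 128705149 (4.90). Whether they lie in exons or introns was not analysed here.

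The distal regions of Epcam, Cd24a and Cd164 each lay on 1 side of the gene. Those of Epcam were all upstream on chromosome 17: from 87619910 to 87620340 (15.9 kb from the start, fold 8.75), from 87616791 to 87617435 (18.9 kb, fold 5.64), from 87609547 to 87610187 (26.1 kb, fold 9.37) and from 87571415 to 87571905 (64.3 kb, fold 7.55). Of these folds, 3 passed the median of 6.87 for all distal regions.
Those of Cd24a were all downstream on chromosome 10, and began at 50.2 kb from the start, far beyond the end of a gene of 5.10 kb. They ran from 43629259 to 43629558 (50.2 kb, fold 6.05), from 43657519 to 43657970 (78.6 kb, fold 11.1), from 43684277 to 43684599 (105 kb, fold 8.30) and from 43689960 to 43690309 (111 kb, fold 7.21). The Cd164 regions were downstream too, all inside the neighbouring gene Ccdc162, and none of their folds reached the median: from 41553746 to 41554127 (34.4 kb, fold 6.13), from 41565099 to 41565444 (45.8 kb, fold 5.40), from 41583011 to 41583278 (63.6 kb, fold 6.49) and from 41584595 to 41584917 (65.3 kb, fold 4.48).

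Aldh3a1, Ly6a and Ascl3 had a distal region each, all upstream. That of Aldh3a1, on chromosome 11 from 61199651 to 61200050, was 8.7 kb from the start with a fold of 6.85. That of Ly6a, on chromosome 15 from 74998912 to 74999264, was 1.06 kb from the start with a fold of 5.19, and within 2 kb it would count as at the 5′ end. It lay inside the lncRNA gene Gm28068 and was the only region between the 5′ ends of Ly6i and Ly6c1, the coding neighbours of Ly6a. Ly6 genes resemble one another in sequence, and how reads that fit several places were treated is not given in the sources used here. That of Ascl3, on chromosome 7 from 109739905 to 109740535, lay 8.49 kb from the start, inside the gene Tmem9b, with a fold of 8.34 and 3 summits. Ascl3 thus had no region at its start or in its body, but a region above the median fold in the 14.2 kb nearest to its 5′ end.

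Kit and Prom1 had no region of any of the 3 kinds. The stretch nearest to the 5′ end of Kit measured 414 kb, the longest of the 10, and the nearest region of the list was 415 kb away, on chromosome 5 from 75990234 to 75990592, beyond the 5′ end of the neighbouring gene Kdr. From the 5′ end of Pdgfra to that of Kdr, which flank Kit, 828 kb held 1 region. It was not the region just named, and lay on the Pdgfra side, farther from the 5′ end of Kit. Of the 1346 genes with a stretch at least as long as that of Kit, 30.9% had no distal region and the median was 2. Around Prom1, in a stretch of 79.4 kb, the nearest region lay 116 kb away, near Fgfbp1, with a fold of 4.48. Among 7515 genes with stretches at least as long, 2856 had no distal region. A further start site of Prom1 in the RefSeq table, 7279 bp inside the gene, had no region within 1 kb either. Each of them shared its state, no region at the 5′ end, within the gene or distal, with 7957 other protein-coding genes.

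**Figure D4:**
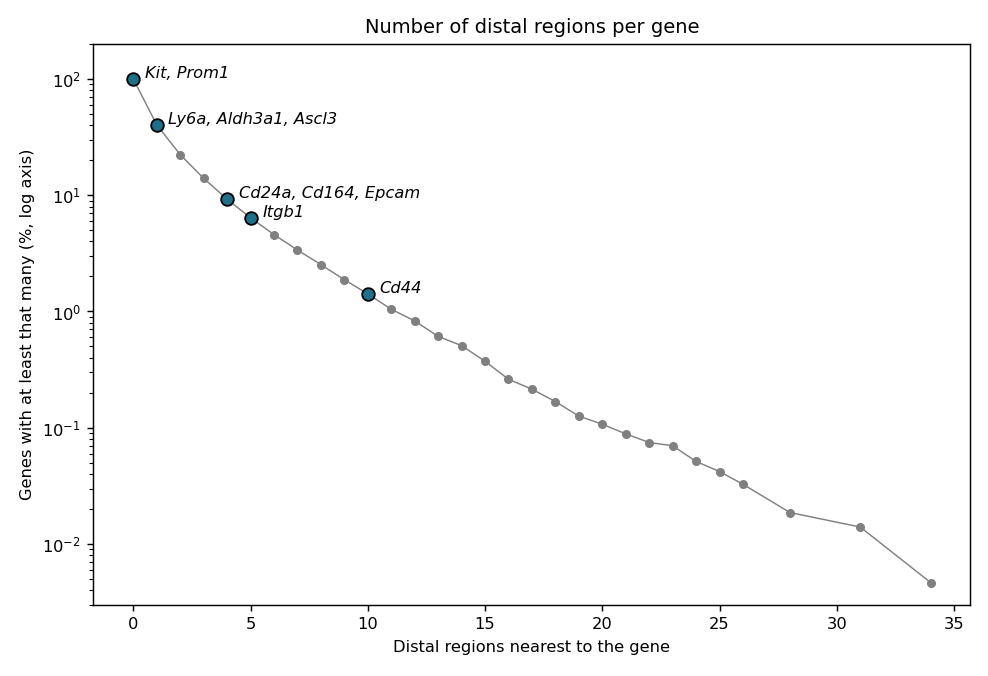
Percent of protein-coding genes (log axis) with at least the number of distal regions on the horizontal axis (grey points), with the 10 genes marked at their own numbers. Cd44, with 10, lies where 1.42% of genes remain, and Kit and Prom1 stand at 0.

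Distal regions of the 10 genes were like distal regions in general in median fold. Their folds ran from 3.47 to 13.7 with a median of 6.96, against 6.87 (quartiles 5.58 and 8.92) for all 23756, and 15 of 30 lay above that median. Of the 30, 8 had an IDR score of 1000 and 17 had several summits, both smaller shares than the 40.9% and 68.4% of all distal regions. The median width was 363 bp against 388 bp. They lay 1.1 to 111 kb from the 5′ ends with a median of 46.4 kb (36.3 kb for all), 16 upstream and 14 downstream, and 25 of them outside the gene. Genes with a region at the 5′ end had more distal regions than genes without, with means of 1.38 and 0.94 over all genes, and of 4.67 and 0.50 over the 6 and 4 genes here. These means do not take the nearest stretch into account. It measured 46.2 to 353 kb for the 6 genes, and 14.2 (Ascl3), 32.7 (Ly6a), 79.4 (Prom1) and 414 kb (Kit) for the 4. Which gene a distal region acts on was not measured. For 25 of the 30, a start of another gene of any type, mostly an lncRNA, lay nearer than that of the gene named here, and with genes of every type counted, 5 of the 30 remained, 3 at Itgb1 and 1 each at Ly6a and Ascl3. Such starts were within 1 kb of the farthest Epcam region (Gm46587, 0.9 kb) and the nearest distal Cd164 region (Gm17196, 0.38 kb), both lncRNA genes.

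**Figure D5:**
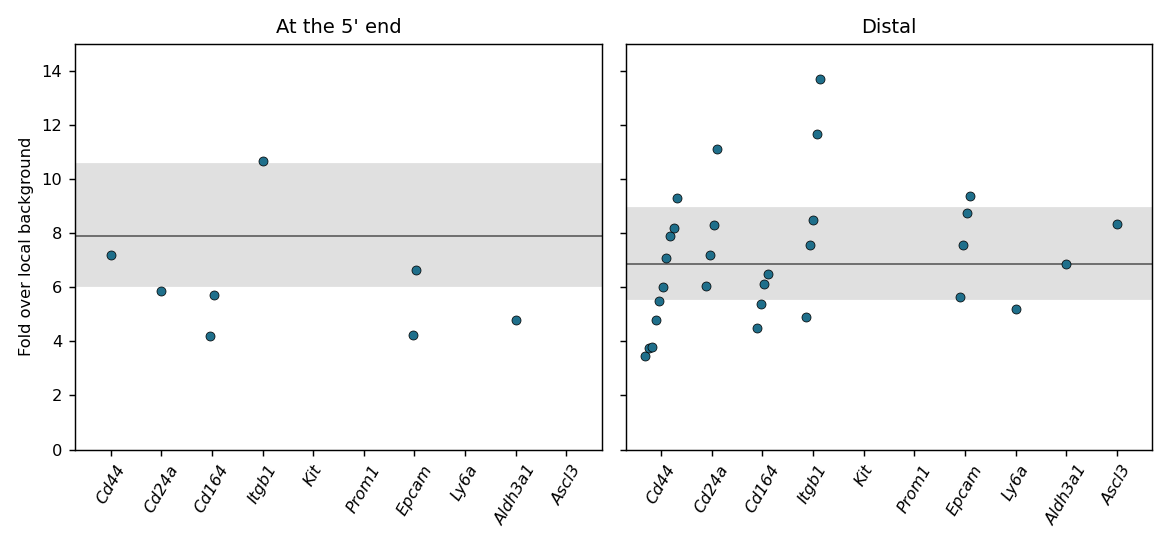
Fold over the local background of each region at the 5′ end (left) and of each distal region (right), by gene; the line is the median and the grey band the quartiles of all regions of that kind in the list. At the 5′ end only Itgb1 (10.7) lies above the median of 7.90, whereas 15 of 30 distal regions lie above theirs.

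The partners and relatives of these genes were described from a list of 29 genes. A region at the 5′ end was listed for 8 of them (38.3% of all genes) and 1 or more distal regions for 19 (40.3% of all genes), with a median of 1. The 7 integrin subunits of the list, which leaves out some partners of Itgb1, each had 1 to 5 distal regions. A region at the 5′ end was listed for 3 of them: Itga5, a subunit of the fibronectin receptor, and Itga6 and Itgb4, which together bind laminin in hemidesmosomes. Itgav had the most distal regions of them, 5, and none at the 5′ end. Has2, a synthase of the CD44 ligand hyaluronan, had 12 distal regions and no region at the 5′ end, and Spp1, which encodes the ligand osteopontin, had 3. Kitl, the gene of the KIT ligand, had a region at the 5′ end, 1 within the gene and 3 distal, where Kit itself had none. Cldn7, the claudin that binds EpCAM, had no region of any kind, and neither did Prom2 and Cd164l2. Of 6 other Ly6 genes, Ly6e had a region at the 5′ end and Ly6c1, Ly6c2, Ly6g and Ly6k had none of any kind. Of 7 other aldehyde dehydrogenase genes, Aldh2, Aldh3a2 and Aldh7a1 had a region at the 5′ end, and Aldh3a2, the neighbour of Aldh3a1, also had 3 distal regions. None of Ascl2, Ascl4 and Ascl5 had one at the 5′ end.

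Among 10 further stem/progenitor markers, mostly nuclear or structural proteins, 4 had a region at the 5′ end (Sox9, Krt5, Krt14 and Nt5e), a share near the 38.3% of all genes, and the median number of distal regions was 4.5 (0 for all genes). Sox9 had the most, 23. Nt5e, which encodes the surface enzyme CD73, had 11 distal regions, Trp63 and Sox2 had 10 each and the Wnt target Axin2 had 8. The lengths of the stretches nearest to these markers and to the partner genes were not compared, and longer stretches can hold more regions. Lgr5, a stem cell marker of other epithelia, had no region of any kind, and Procr and Sox10 had 1 distal region each and none at the 5′ end. Because Kit, Ly6a, Cd44 and Prom1 are also found on other cells, markers of these were counted. A region at the 5′ end was listed for 5 of 8 epithelial markers (Krt8, Krt14, Krt5, Cdh1 and Cldn4), 1 of 6 immune markers (Cd68), 0 of 6 endothelial, 0 of 6 fibroblast, 1 of 6 mast cell and melanocyte markers (Mitf), 0 of 4 acinar and 0 of 3 myoepithelial markers, beside 38.3% of all genes. Of the epithelial markers, Krt7 and Krt19 had no region of any kind, and Krt18 had only 1 distal region. Of the immune markers, Ptprc and Adgre1 had 1 distal region each, and Cd3e, Cd79a and Itgam had no region of any kind. Distal regions were nevertheless nearest to all 6 endothelial markers, from 1 to 7 each, beside 40.3% of all genes with 1 or more. The same held for 4 of 8 epithelial, 3 of 6 fibroblast and 2 of 6 immune markers. It also held for 1 of 6 mast cell and melanocyte, 1 of 4 acinar and 2 of 3 myoepithelial markers. The paper reports that its single-cell RNA data of the organoids lacked acinar cells, macrophages and endothelial cells. What part other cells play in the regions of the 10 genes was not tested.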

How the data were processed

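Bulk ATAC-seq of mSGOs was deposited with 4 samples. The authors sequenced 75 bp paired-end reads, and used the ENCODE pipeline for ATAC-seq (version not given in the sources used here) for alignment and peak calling, with all organoid samples in a consensus file; the single deposited list was taken to be that file, although neither its lines nor its distinct regions match the number of peaks given for it. Per line, the deposited list holds an IDR score, a fold (ratio) over background, a −log10 p-value (not used) and a −log10 q-value, all from the authors' caller. The submitters' processing notes name HOMER and GRCm39. However, 38.3% of 21440 protein-coding 5′ ends of the GRCm38.p6 RefSeq table had a region within 1 kb, against 5.04% for GRCm39 GENCODE ends, so the list was read as GRCm38.

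Lines with equal coordinates were joined into 1 region with the values of its strongest summit (69545 lines, 32011 regions). Strand came from the RefSeq promoter table (17492 protein-coding genes, 7 of the 10 described) or, by name, from GENCODE (3948, and the other 3). Regions were placed by midpoint. No statistical test was made, since no sample has values of its own; counts are set beside those of all protein-coding genes. The genes and lists were chosen with earlier results of these data known. Named genes are the 10, with every distal region, and listed partners and markers with a region, the most distal regions or none. Some listed partner genes are not reported here and are left out of the counts. Counting was tested on simulated data. The alternatives tried were other distances, summits, stricter sets, every line and other gene sets. Sequences of distal regions were not analysed here. Analyses used Python 3.11.15, numpy 2.4.6, pandas 2.3.3 and matplotlib 3.10.9.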

Additional observations from a re-analysis of the deposited data

How the results depend on the processing

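A region at the 5′ end was found for 6 of the 10 genes also within 500 bp, by summit, with either gene end or with any start site in the RefSeq table (the last chosen after the data were seen), and 7 within 2 kb. In the set with the lowest q-values the number was 2, and at an IDR score of 1000 it was 1; both sets are smaller by construction. The 8 regions within the genes became 11 with 1 shared base, 3 and 1 in these stricter sets, and 16 when every line was counted. The 30 distal regions became 32 and 29 with limits of 500 bp and 2 kb, and 28 within 100 kb. They fell to 13 and 8 in the stricter sets, to 14 for folds at or above the median of all regions (chosen after the data were seen) and to 5 with genes of every type, and rose to 61 by lines. Gene by gene, of 116 such counts that started above 0, 62 stayed within 1.5 times their value, 44 were lower and 10 higher. Kit and Prom1 stayed at 0 under all of them, but none of these settings could have changed that. Their nearest regions lay 415 and 116 kb away, each closer to the 5′ end of another coding gene. In the stricter sets a count of 0 cannot change in any case. The median fold at the 5′ ends, 5.78, is 10.7 at an IDR score of 1000, where only the Itgb1 region is left. No sample could be left out, and no paired analysis was possible because the list pools the samples. With depth unknown, a missing region is not shown to be closed.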
